A study of Homo sapiens with 4 samples.

Results

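The ferritin heavy chain gene FTH1 and the p62 gene SQSTM1 each have a gene on the opposite strand, BEST1 and MRNIP, and in this RNA-seq table most counts of both loci lay under the opposite-strand rows. Counts under these 4 rows and under FTL, TFRC, NQO1 and HMOX1 are described here, which are 8 of the 59385 rows of the table. The 8 were taken by symbol, and both pairs were chosen by their measured counts, since BEST1 and MRNIP were already seen to hold many. Their levels are therefore a description, and no support is drawn from them. All 8 passed the filter on low counts. RNA came from C4-2 cells, an androgen-independent human prostate cancer line derived from LNCaP, grown in RPMI medium with fetal bovine serum and given a small interfering RNA against EZH2 (siEZH2, n = 2 libraries) or a control one (siCTRL, n = 2 libraries). No time point or dose is given in the labels, nor is it said whether replicates were separate cultures, so p-values measure only the spread between these libraries, which may be technical. The question is how expression changes when EZH2, the catalytic subunit of Polycomb repressive complex 2, is depleted.

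Ferritin is a hollow shell of heavy (FTH1) and light (FTL) chains that stores iron, while the transferrin receptor TFRC brings iron into the cell. Iron regulatory proteins bind hairpins called iron-responsive elements, which blocks translation of ferritin mRNA and protects TFRC mRNA from decay when iron is short. The transcription factor NRF2 answers oxidants and is held back by KEAP1, and its known targets include FTH1, FTL, NQO1, a quinone reductase, and HMOX1, the enzyme that breaks down haem and frees its iron. The autophagy receptor p62 binds KEAP1 and is itself an NRF2 target. BEST1 encodes a chloride channel known from the retinal pigment epithelium, and MRNIP a partner of the MRE11-RAD50-NBN complex of DNA repair.

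Iron-responsive elements were looked for because they tie the ferritin genes to TFRC. The hairpin searched for was a bulged C, 5 bases of any kind and the loop CAGTGN, followed by 5 bases able to pair with the 5 before the loop, G-T pairs allowed, on the sense strand of GENCODE transcripts. It occurs in 3 of the 8 genes and in 1.48% of 19669 coding genes. Of 162 coding genes on the gene lists used below, 7 hold it. Among these 7 are TF, in its 3′ UTR, and NFE2L1 and WIPI1, in coding sequence, which are not shown. In the lines below the capitals mark the bulged C and the 6-base loop. The elements of FTH1 at chr11:61967574-61967603 (minus strand), FTL at chr19:48965334-48965363 (plus strand) and the iron exporter SLC40A1 at chr2:189580661-189580690 (minus strand) lie in 5′ UTRs, in GRCh38. The 4 that this pattern found in TFRC, at chr3:196050979-196051008, chr3:196050575-196050604, chr3:196050510-196050539 and chr3:196050463-196050492 (minus strand), lie in its 3′ UTR and are given in transcript order.
FTH1: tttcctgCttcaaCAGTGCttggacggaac
FTL: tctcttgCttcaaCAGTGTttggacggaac
SLC40A1: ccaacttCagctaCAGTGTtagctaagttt
TFRC element 1: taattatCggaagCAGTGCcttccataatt
TFRC element 2: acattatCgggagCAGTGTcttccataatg
TFRC element 3: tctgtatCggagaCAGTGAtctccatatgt
TFRC element 4: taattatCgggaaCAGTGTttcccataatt

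The core of the antioxidant response element bound by NRF2, TGACNNNGC on either strand, was looked for in RefSeq promoter windows (GRCh38.p14, 250 bases before to 50 after a start). Windows were found for 5 of the 8 genes (TFRC, SQSTM1, MRNIP, NQO1 and FTL), and 0 of their 7 windows hold it, against 13.3% of all 35116 windows. That says only that these letters are not in these windows.

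Total counts were 6362561 and 6162123 in the siEZH2 libraries and 6867542 and 6818482 in the siCTRL libraries. Counts under EZH2 were 60 and 131 in the libraries labelled siEZH2 and 39 and 59 in those labelled siCTRL, at a log2 fold change of 0.51 ± 0.52 (SE; edgeR adjusted p = 0.621). The knockdown was thus not visible in the counts of this row, and every direction below is that of the labels. All 11 luminal prostate markers held counts, from KRT8, a luminal keratin, with 20476 and 10048 in siEZH2 and 19289 and 18784 in siCTRL libraries, down to the adhesion molecule EPCAM with 8 and 10 in siEZH2 and 33 and 26 in siCTRL libraries. The log2 fold changes of these 11 were all negative, with a median of -0.89, and of -0.13 under the second scaling described below. The median of their mean counts was 214. Of all tested rows averaging 200 to 1000 counts, 4.46% were positive, with a median of -0.75, and of -0.02 under the second scaling. Markers of other cell types (12 rows) had median length-scaled levels (counts divided by row length in kb) of 6.59 and 6.65 in siEZH2 libraries and 2.32 and 4.65 in siCTRL libraries. Of the 10 tested, 9 were positive and 1 negative, with a median of 0.56, which was 1.20 under the second scaling and ran from 0.15 to 0.93 when 1 library was left out. The median of their mean counts was 41.4. Of all tested rows averaging 20 to 50 counts, 69.3% were positive, with a median of 0.49, and of 1.16 under the second scaling. The sums over the 12 rows were 809 and 901 counts in siEZH2 and 614 and 701 in siCTRL libraries. CHGA, the neuroendocrine granin, was at or near 0, with 0 and 2 counts in siEZH2 and 0 and 1 in siCTRL libraries. Their part in the results below was not tested. In such bulk RNA, fewer cells of a type and less RNA per cell cannot be told apart.

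BEST1 (GRCh38 chromosome 11, 61949821 to 61965515, plus strand) held 265907 and 226416 counts in siEZH2 libraries and 213179 and 191839 in siCTRL libraries. It was the row with the second highest count in each of the 4 libraries. FTH1 (chromosome 11, 61959718 to 61967660, minus strand) held 453 and 371 counts in siEZH2 libraries and 326 and 415 in siCTRL libraries. The BEST1 row thus held 587 and 610 times the counts of FTH1 in siEZH2 libraries and 654 and 462 times in siCTRL libraries, and the groups overlapped. Per kb of row length the ratio was 135 and 141 in siEZH2 libraries, against 151 and 107 in siCTRL libraries.

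The exons of both genes share 2 stretches. The longer, chromosome 11 from 61964285 to 61965515, covers 1231 bases, and the shorter, 61959892 to 61959927, covers 36. Of the principal FTH1 isoform of 1229 bases, BEST1 exons face 880 bases (71.6%), among them 435 of the 549 coding bases. The table holds 1 count per row, so RNA of BEST1 and RNA of FTH1 counted on the opposite strand cannot be told apart there. The effect of the strand setting of the counting (not given in the sources used here) was not tested.

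Markers of the retinal pigment epithelium ranged widely. RPE65, the visual cycle isomerase, had 19 and 6 counts in siEZH2 and 6 and 14 in siCTRL libraries. RLBP1, a retinoid carrier, had 33 and 28 in siEZH2 and 10 and 16 in siCTRL libraries, and RDH5, a retinol dehydrogenase, had 0 and 0 in siEZH2 and 5 and 0 in siCTRL libraries. Without BEST1, the 14 other bestrophin and retinal pigment epithelium rows had median levels of 6.69 and 8.11 counts per kb in siEZH2 libraries and 1.83 and 3.59 in siCTRL libraries, near those of markers of other cell types. PMEL, a melanosome protein, stood above the rest, with 754 and 903 counts in siEZH2 and 1725 and 1648 in siCTRL libraries. Its log2 fold change was -1.49 (edgeR adjusted p = 0.189), and -0.76 under the second scaling. SERPINF1, a secreted factor, came next, with 146 and 233 counts in siEZH2 and 204 and 166 in siCTRL libraries. The related bestrophins BEST2, BEST3 and BEST4 held between 0 and 49 counts. Of the 13 tested rows of this list, 8 were positive and 5 negative, BEST1 included. FTH1 has processed pseudogenes, near copies among which reads may be split. Their 25 rows together held 47 and 54 counts in siEZH2 libraries and 37 and 47 in siCTRL libraries.

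MRNIP (chromosome 5, 179835133 to 179862173, minus strand) held 26118 and 22447 counts in siEZH2 libraries and 20763 and 19391 in siCTRL libraries. SQSTM1 (chromosome 5, 179806398 to 179838078, plus strand) held 1158 and 1107 counts in siEZH2 libraries and 1155 and 1282 in siCTRL libraries. MRNIP thus had 22.6 and 20.3 times the counts of SQSTM1 in siEZH2 libraries and 18.0 and 15.1 times in siCTRL libraries, so that both siEZH2 ratios lay above both siCTRL ratios. Ratios also separated in other pairs given below whose opposite row held more counts. They were higher in siEZH2 libraries for MMACHC over PRDX1 (78.8 and 69.4 against 49.0 and 52.4) and TMEM184A over MAFK. For STEAP3-AS1 over STEAP3 they were lower (17.5 and 19.1 against 77.8 and 69.3). Lower ratios were also seen for KRT8 over KRT18, SLC35A5 over ATG3, SLC7A11-AS1 over SLC7A11 and PSME3 over BECN1. Ratios overlapped for PCBP1-AS1 over PCBP1, MAP3K12 over PCBP2, CNTD1 over BECN1, ARSG over WIPI1 and VIM-AS1 over VIM, as for BEST1 over FTH1. TH2LCRR over RAD50 had no ratio in siEZH2 replicate 2, where RAD50 held 0 counts. Exons of MRNIP face 1582 of the 2986 bases of the principal SQSTM1 isoform (53.0%), mostly its 3′ UTR, with 155 of 1320 coding bases. SQSTM1 also faces 105 exonic bases of MGAT4B, a glycosyltransferase gene, at its other end, and that row held 113 and 109 counts in siEZH2 and 116 and 150 in siCTRL libraries. The other members of the repair complex stood far below MRNIP. MRE11 had 50 and 70 counts in siEZH2 and 29 and 52 in siCTRL libraries, and NBN had 34 and 88 in siEZH2 and 26 and 26 in siCTRL libraries.

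**Figure D1:**
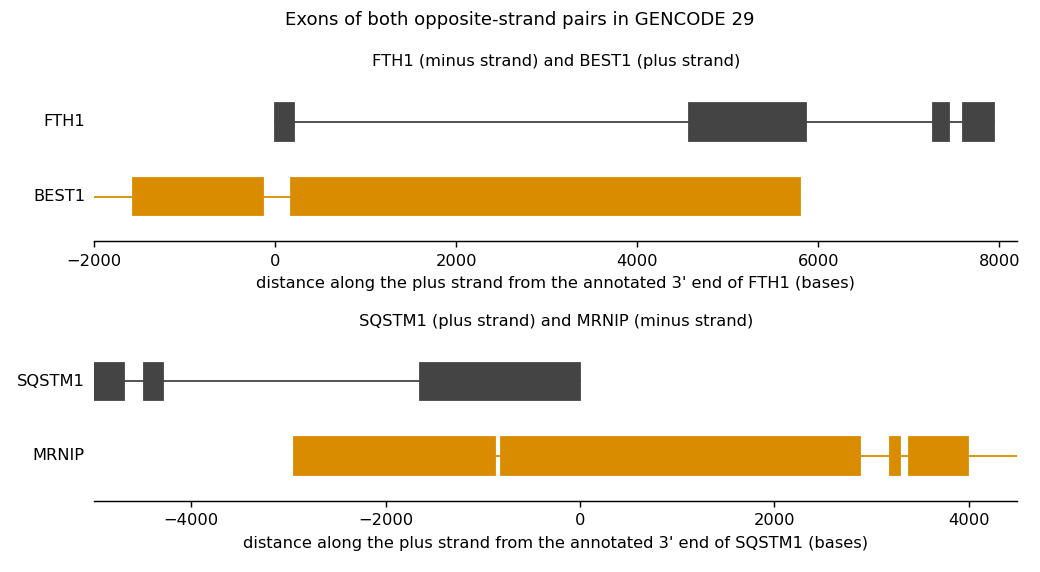
Merged exons (boxes) over all annotated isoforms of FTH1 and BEST1 and of SQSTM1 and MRNIP, in a window around their overlap, against distance in bases from the annotated 3′ end of FTH1 or SQSTM1 along the plus strand. Exons of FTH1 face BEST1 exons over 1267 bases, and those of SQSTM1 face MRNIP exons over 1582 bases.

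**Figure D2:**
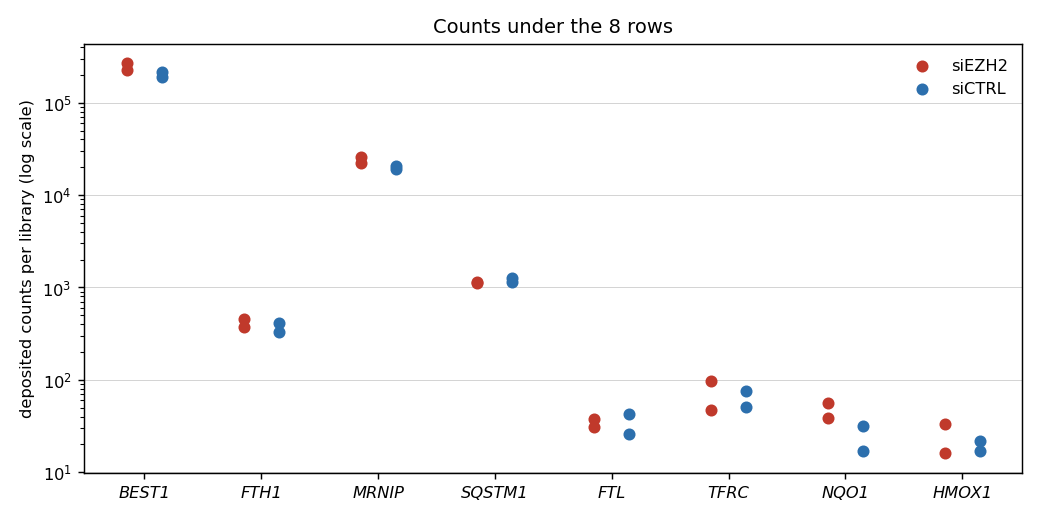
Deposited counts in each of the 4 libraries (points, log axis) under the 8 rows, siEZH2 left and siCTRL right. BEST1 and MRNIP stand above FTH1 and SQSTM1, and the 4 remaining rows hold between 16 and 97 counts.

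The remaining 4 genes were read in their own rows, and each row was low. FTL (chromosome 19, 48965301 to 48966878, plus strand) had 31 and 38 counts in siEZH2 libraries and 26 and 43 in siCTRL libraries, so the groups overlapped. Its level was 35.6 and 43.6 counts per kb in siEZH2 and 29.9 and 49.4 in siCTRL libraries. The 16 FTL pseudogene rows together held 30 and 74 counts in siEZH2 and 22 and 26 in siCTRL libraries, more than FTL itself in siEZH2 replicate 2. How reads were split between FTL and these near copies is uncertain.

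TFRC (chromosome 3, 196027183 to 196082189, minus strand) had 97 and 47 counts in siEZH2 libraries and 51 and 75 in siCTRL libraries. The siEZH2 libraries held both the highest and the lowest value. HMOX1 (chromosome 22, 35380361 to 35394214, plus strand) had 33 and 16 counts in siEZH2 and 17 and 22 in siCTRL libraries, again with siEZH2 libraries at both ends. NQO1 (chromosome 16, 69706996 to 69726951, minus strand) had 56 and 39 counts in siEZH2 libraries and 17 and 32 in siCTRL libraries, the one of these 4 rows whose deposited counts did not overlap between groups. By share of all counts, both siEZH2 libraries likewise lay above both siCTRL libraries in 53.1% of tested rows averaging 20 to 50 counts. Per kb, TFRC lay between 6.03 and 12.4, HMOX1 between 6.94 and 14.3 and NQO1 between 5.72 and 18.8 counts over the 4 libraries. The 12 rows of other cell types had medians from 2.32 to 6.65 on that scale. The counts under these 3 rows were thus not far above those of genes not looked for in this line. Whether counts under these rows and FTL stand for RNA levels was not tested, as the strand setting is not given.

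FTL, TFRC and HMOX1 overlap no annotated exon on the opposite strand in GENCODE release 29. NQO1 overlaps 575 bases of an antisense gene that was not analysed here. NQO1-DT, a noncoding RNA that starts 167 bases upstream of NQO1 on the plus strand in RefSeq and was named after its values were seen, held 3314 and 3691 counts in siEZH2 and 3340 and 3358 in siCTRL libraries. GENCODE places an antisense gene there, at 69727013 to 69742563, which shares 0 exonic bases with NQO1 and 429 with NOB1, a ribosome assembly gene. Counts of NQO1-DT are therefore not set against those of NQO1.

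No row of the 8 was called higher or lower. With edgeR's quasi-likelihood test and Benjamini-Hochberg adjustment over 24431 rows, 0 of 8 passed at an adjusted p under 0.05, against 0% of all tested rows in either direction. At an unadjusted p under 0.05 the count was 0 of 8, against 16.4% of tested rows. DESeq2 called 0 of the 4 rows to which it gave an adjusted p, against 17.3% of its rows, and limma-voom 0 of 8 against 1.41%. The adjusted p ran from 0.482 for SQSTM1 to 0.975 for HMOX1. With 2 libraries a group, these counts of 0 do not show that the rows were alike.

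BEST1 averaged 32996 ± 7065 CPM (counts scaled to a TMM-adjusted library of 1000000; SD, n = 2) in siEZH2 libraries and 37242 ± 10095 CPM in siCTRL libraries (SD, n = 2). Its log2 fold change was -0.17 ± 0.63 (SE). MRNIP averaged 3254 ± 676 CPM in siEZH2 and 3683 ± 905 CPM in siCTRL libraries (SD, n = 2 each), and its log2 fold change was -0.18 ± 0.50 (SE). Both differences were smaller than the spread within either group. FTH1 averaged 55.3 ± 13.3 CPM in siEZH2 and 66.5 ± 1.94 CPM in siCTRL libraries (SD, n = 2 each), and its log2 fold change was -0.27 ± 0.40 (SE). SQSTM1 averaged 151 ± 20.2 CPM in siEZH2 and 221 ± 27.8 CPM in siCTRL libraries (SD, n = 2 each), and its log2 fold change, -0.55 ± 0.40 (SE), was the most negative of the 8. FTL had -0.41, TFRC -0.19 and HMOX1 -0.07, and NQO1, at 0.57 ± 0.68 (SE), had the 1 positive value.

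These signs depend on the scaling. The TMM factors over all tested rows differed between the groups, at 1.12 and 1.34 in siEZH2 and 0.70 and 0.95 in siCTRL libraries. When TMM factors were taken only from well-covered rows (200 or more counts in 2 libraries), the median log2 fold change of all tested rows moved from 0.22 by 0.66, and all 8 values became positive, from 0.16 for SQSTM1 to 1.20 for NQO1. BEST1 then had 0.55 and MRNIP 0.54, each with an adjusted p of 0.171 (edgeR). The median of the 8 was -0.19 against 0.22 for all tested rows under the first scaling, and 0.49 against 0.88 under the second. A change of scaling moves all rows by similar amounts, so the order of these medians could hardly change. On all-row scaling BEST1 and MRNIP also turned positive without siCTRL replicate 1, at 0.07 and 0.03, and without siEZH2 replicate 2, at 0.02 and 0.01. Without that siEZH2 library TFRC stood at 0.28 and HMOX1 at 0.41, and without siEZH2 replicate 1 they stood at -1.03 and -0.90.

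Against rows of like counts, BEST1 and MRNIP were on the high side. The 959 tested rows averaging 1000 counts or more had a median of -0.71 on the log2 scale, and 43 of them (4.48%) lay above BEST1 and 49 (5.11%) above MRNIP. SQSTM1, in the same class, had 26.6% of rows above it. FTH1 had 11.3% of the 1928 rows with 200 to 1000 counts above it. FTL stood on the low side of the 8187 rows with 20 to 50 counts, 81.9% of which lay above it.

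As a share of all counts the same pair of rows ran the other way. BEST1 took 4.18% (exact 95% interval 4.16% to 4.19%) and 3.67% (3.66% to 3.69%) of counts in siEZH2 libraries, against 3.10% (3.09% to 3.12%) and 2.81% (2.80% to 2.83%) in siCTRL libraries. MRNIP took 0.410% (0.406% to 0.415%) and 0.364% (0.360% to 0.369%) in siEZH2 libraries, against 0.302% (0.298% to 0.306%) and 0.284% (0.280% to 0.288%) in siCTRL libraries. These intervals cover counting error only and treat every count as independent. Of rows with 1 to 20 counts, 71.8% and 73.8% held an even count in siEZH2 and 65.1% and 70.6% in siCTRL libraries. Counts may therefore not be independent, and the intervals may be too narrow. Both siEZH2 shares lay above both siCTRL shares for 3 of the 8 rows, BEST1, MRNIP and NQO1, against 45.6% of all tested rows, and below them for 0 of 8, against 9.79%. BEST1 and MRNIP were 2 of the 3 rows averaging 1000 counts or more, a class in which 10.8% of rows had higher shares. NQO1 was 1 of the 3 averaging 20 to 50 counts, a class in which 53.1% did. On scaled CPM both siEZH2 libraries lay below both siCTRL libraries for 3 of 8, FTH1, SQSTM1 and FTL, against 22.9% of tested rows, and above them for 0 of 8, against 31.4%. SQSTM1 was the 1 row of the class of 1000 counts or more to lie below, where 78.5% of rows did. In the class of FTH1, with 200 to 1000 counts, 74.2% of rows did, and in that of FTL 12.2%.

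**Figure D3:**
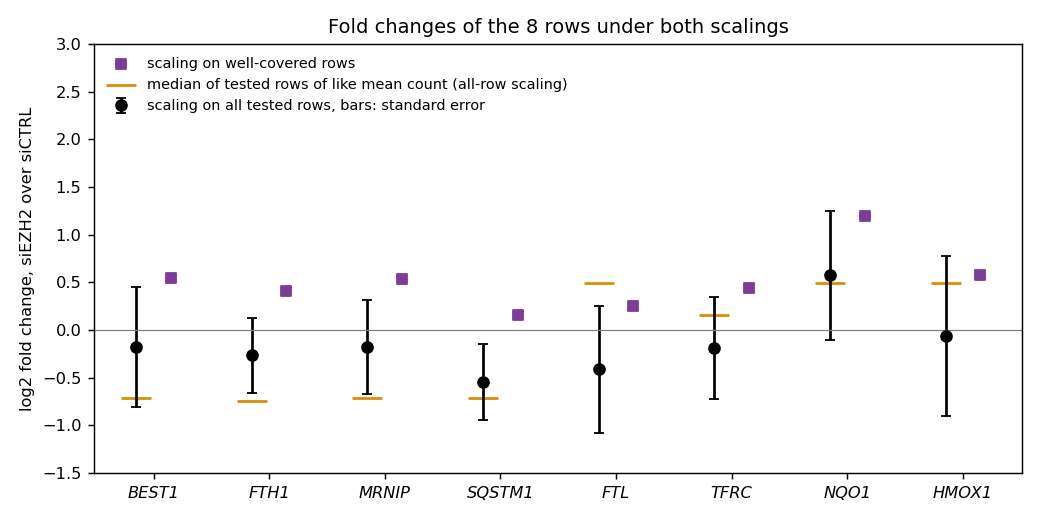
Log2 fold change, siEZH2 over siCTRL, of the 8 rows with scaling on all tested rows (black, bars standard error) or on well-covered rows (purple), beside the median of tested rows of like mean count (orange). 7 of 8 values are negative under the first scaling, and all 8 are positive under the second.

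BEST1 and MRNIP, on chromosomes 11 and 5, followed nearly the same course over the 4 libraries. BEST1 held 10.2 and 10.1 times the counts of MRNIP in siEZH2 libraries and 10.3 and 9.89 times in siCTRL libraries. Likeness was measured as the Euclidean distance between log2 CPM profiles, each centred on its own mean over the 4 libraries, among 2886 other rows averaging 200 counts or more. MRNIP was the second nearest row to BEST1, at a distance of 0.0398 against a median of 0.711, and BEST1 was the nearest row to MRNIP. The other closest rows to BEST1 were RP11-69H7.3, a clone-named row, at 0.0387 and HBP1, a transcriptional repressor, at 0.0748. Those to MRNIP were RP11-69H7.3 at 0.0422 and RP11-152H18.3 at 0.0436. RP11-69H7.3 held 774 and 650 counts in siEZH2 and 598 and 552 in siCTRL libraries. The rows facing the pair were less alike. FTH1 was the 326th nearest row to BEST1, at 0.377, and SQSTM1 the 483rd nearest to MRNIP, at 0.428. With 4 libraries a short distance is a description of these libraries, which share their scaling factors.

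**Figure D4:**
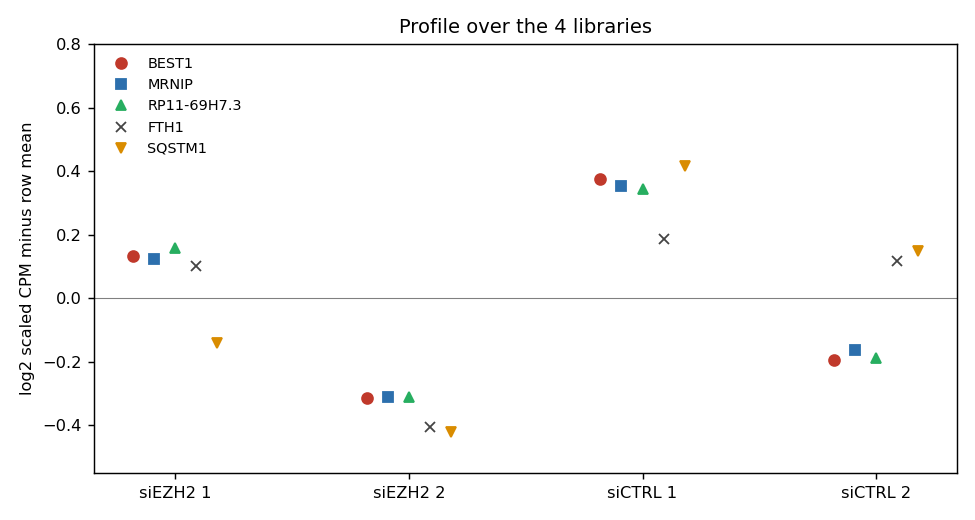
Log2 scaled CPM of 5 rows in each library, minus the row's mean over the 4 libraries. BEST1, MRNIP and RP11-69H7.3 lie together in every library, while FTH1 and SQSTM1 depart from them, by the most in siCTRL replicate 2.

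Pathway genes around the 8 were taken from 7 lists, covering iron handling, haem, NRF2 regulators and targets, other antioxidant enzymes, selective autophagy and the MRE11 complex. Apart from the 8 themselves, 110 of these genes were tested, 52 with a positive and 58 with a negative log2 fold change. Their median was -0.06, against 0.22 for all tested rows, of which 56.7% were positive. It was 0.64 under the scaling on well-covered rows, against 0.88 for all tested rows. edgeR called 0 of them, and 16 (14.5%) had an unadjusted p under 0.05, against 16.4% of all tested rows. DESeq2 called 3, PRDX1, EPHX1 and SOD1, each with a negative value, where it called 17.3% of the 5011 rows to which it gave an adjusted p. How many of the 110 were among those rows was not counted. In limma-voom SOD1 alone was called, where 1.41% of rows were. SOD1, the cytosolic superoxide dismutase, had 49 and 40 counts in siEZH2 and 101 and 146 in siCTRL libraries, a log2 fold change of -1.88 (edgeR adjusted p = 0.189). It stayed negative under the scaling on well-covered rows, at -1.22. Outside these 7 lists, DESeq2 called 3 and limma-voom 1 of the 11 luminal prostate markers. Each called 1 of the bestrophin and retinal pigment epithelium rows, and edgeR called 0 in both lists.

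Iron uptake, storage and export genes counted 26 tested genes, 15 positive and 11 negative, around a median of 0.17. Under the scaling on well-covered rows, 22 of the 26 were positive and the median was 0.89. Besides FTH1, the listed genes with most counts were CP, a ferroxidase of iron export, at -0.95, and NCOA4, the receptor that delivers ferritin to autophagosomes, at -0.94. NCOA4 had 183 and 237 counts in siEZH2 and 272 and 317 in siCTRL libraries, with no overlap between groups, and its adjusted p was 0.272 (edgeR). Among rows of 200 to 1000 counts, 74.2% likewise lay below on scaled CPM. Under the other scaling CP stood at -0.25 and NCOA4 at -0.22. Haem synthesis and breakdown genes had 2 positive and 13 negative of 15 and a median of -0.42, which was 0.25 with 12 of 15 positive under the other scaling. PPOX and UROD, which act in haem synthesis, had -0.61 and -0.23, and HMOX2, the constitutive haem oxygenase, -0.95.

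NRF2 regulators had 4 positive and 6 negative of 10 and a median of -0.19, which became 0.49 with 8 of 10 positive under the other scaling. The small Maf partners of NRF2, MAFK and MAFF, had -1.08 and -1.18, and stayed negative at -0.32 and -0.55 under that scaling. NRF2 targets had 11 positive and 16 negative of 27 and a median of -0.18. Scaled on well-covered rows, 22 of the 27 were positive and the median was 0.53. Next to SQSTM1 and FTH1, PRDX1, a peroxiredoxin, had 266 and 249 counts in siEZH2 and 459 and 360 in siCTRL libraries, for a log2 fold change of -1.14 ± 0.42 (SE; edgeR adjusted p = 0.219). EPHX1, an epoxide hydrolase, had -1.13. Other antioxidant enzymes had 4 positive and 12 negative of 16 and a median of -0.49. Here too the sign turned with the scaling, to a median of 0.14 with 10 of 16 positive. SOD2, the mitochondrial superoxide dismutase, had -0.86, TXNRD2, a mitochondrial thioredoxin reductase, 0.14 and PRDX2, another peroxiredoxin, -0.06.

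Selective autophagy genes had 14 positive and 12 negative of 26 and a median of 0.05, against 21 of 26 positive and a median of 0.80 under the other scaling. ATG7, the enzyme that activates ubiquitin-like autophagy proteins, had the most counts, 1933 and 3317 in siEZH2 and 2446 and 2101 in siCTRL libraries, at -0.29. The MRE11 complex and its kinase ATM had 3 positive and 1 negative of 4. ATM had 206 and 398 counts in siEZH2 and 88 and 123 in siCTRL libraries, a log2 fold change of 1.06 (edgeR adjusted p = 0.257), and RAD50 was under the filter. The medians of the iron, NRF2 regulator and autophagy lists changed sign when 1 library was left out, over ranges of -0.07 to 0.37, -0.44 to 0.22 and -0.14 to 0.18. Those of the other lists kept their sign, at -0.63 to -0.14 for haem genes, -0.58 to -0.15 for NRF2 targets, -0.70 to -0.23 for other antioxidant enzymes and 0.01 to 0.38 for the MRE11 complex and ATM.

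The excess of counts in the opposite row was not particular to FTH1 and SQSTM1. Of all listed genes, 31 had a row in the table on the opposite strand with at least 100 shared exonic bases, and in 18 of them the opposite row held more counts. BEST1, MRNIP and KRT8, which are such rows themselves, are among the other 13. PCBP1 encodes a chaperone that hands iron to ferritin. It held 99 and 118 counts in siEZH2 and 113 and 124 in siCTRL libraries, while PCBP1-AS1 opposite it held 19793 and 19230 in siEZH2 and 26155 and 24207 in siCTRL libraries, on average 197 times as many. PCBP2, a second iron chaperone, faced MAP3K12, a kinase gene, with 14.5 times its counts. STEAP3, a ferrireductase of the transferrin cycle, faced STEAP3-AS1 with 33.7 times.

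Among oxidant response genes, PRDX1 faced MMACHC, a vitamin B12 processing gene, with 59.7 times its counts, at 20951 and 17280 in siEZH2 and 22506 and 18866 in siCTRL libraries. SLC7A11, the cystine importer, faced SLC7A11-AS1 with 5.96 times and MAFK faced TMEM184A with 2.97 times. Among autophagy genes, BECN1 faced CNTD1 with 44.7 times its counts and PSME3 with 3.65 times, ATG3 faced SLC35A5 with 14.5 times and WIPI1 faced ARSG with 5.42 times. RAD50 faced TH2LCRR with 31.3 times. Outside the pathways, KRT18 faced KRT8 with 16.4 times and VIM faced VIM-AS1 with 13.4 times.

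Other pairs went the opposite way. ATG7 shares 1596 exonic bases with VGLL4, a transcription cofactor gene, which held 85 and 98 counts in siEZH2 and 120 and 115 in siCTRL libraries, or 0.0427 of the counts of ATG7. CP held more than HPS3 opposite it, which had 0.114 of its counts, and PPOX more than B4GALT3, with 0.0979. The ratio of FTH1 and BEST1 was thus the widest of the pairs listed, and the pair was chosen for it.

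**Figure D5:**
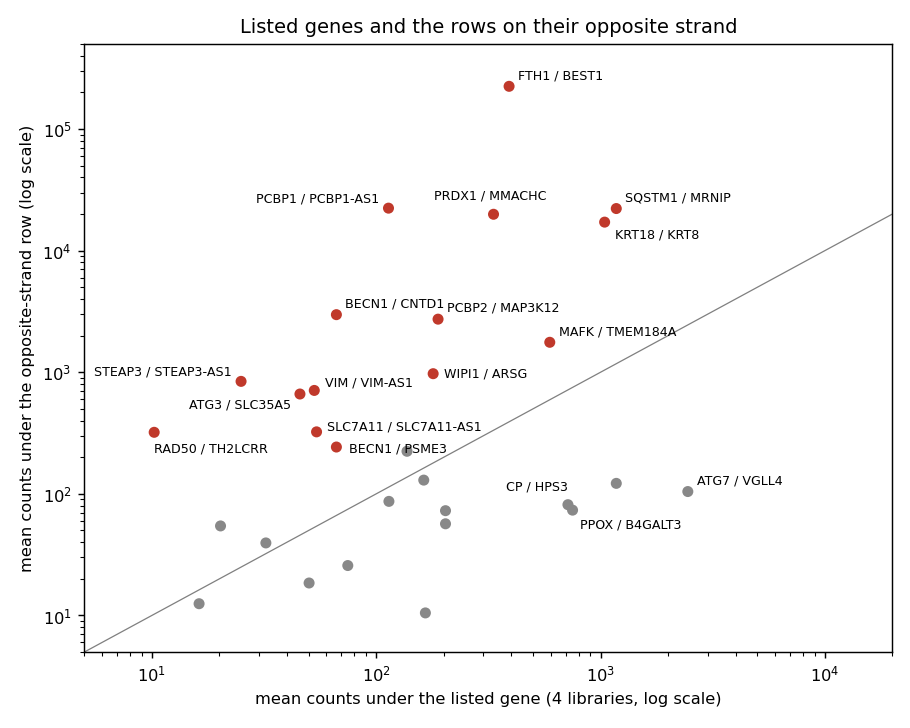
Mean counts over the 4 libraries under 30 pairs of a listed gene (x) and a row on its opposite strand (y), both log axes, with the line of equal counts. Red points are opposite rows averaging 200 counts or more and over 2 times those of the listed gene, FTH1 with BEST1 being the highest, while ATG7, CP and PPOX lie under the line.

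Of the 7 opposite rows with most counts, BEST1 and MRNIP had log2 fold changes of -0.17 and -0.18, PCBP1-AS1 -0.83, MMACHC -0.58, KRT8 -0.74, CNTD1 -0.70 and MAP3K12 -0.82. Under the scaling on well-covered rows, these were 0.55, 0.54, -0.10, 0.15, -0.06, 0.04 and -0.05 in the same order. BEST1 and MRNIP had the highest 2 values of these 7 rows under both scalings, and none of the 7 passed the edgeR test, with adjusted p from 0.344 to 0.905. That standing depends on where the list was cut. Below these 7 in counts, ARSG opposite WIPI1 stood higher than both, at -0.12 and, under the scaling on well-covered rows, 0.56.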

How the data were processed

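RNA sequencing was done on C4-2 cells with siEZH2 (2 libraries) or siCTRL (2 libraries), from total RNA with a stranded kit, per the labels' protocols. The deposited values are raw whole-number counts, 1 per row and library, beside a row length. The submitters' processing notes name STAR 2.7.10b, featureCounts 2.0.3, edgeR, limma and GRCh38. Strand setting, read layout and annotation release: not given in the sources used here. Titles gave each column its group and replicate.

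The test was edgeR 4.0.16's (R 4.3.3): filterByExpr (24431 of 59385 rows kept), TMM, glmQLFit and glmQLFTest, no covariate, Benjamini-Hochberg over all kept rows, calls at 0.05. Standard errors came from the fold change and F statistic. The fit was tested on simulated counts with 200 changed rows. Alternatives were RLE and upper-quartile factors, TMM on well-covered rows (200 or more counts in 2 libraries), DESeq2 1.42.0, limma-voom (limma 3.58.1), other filters, a replicate block and the omission of single libraries. Opposite-strand overlap used all isoforms of GENCODE 29 (GRCh38), placed by symbol, with at least 100 exonic bases. The authors' release may differ from it.

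The 8 rows, lists and rules were chosen with earlier results of these data known. Named from each list were called members or, with none, the 3 with most counts. Opposite rows named had a mean of at least 200 counts and over 2 times those of the gene faced, and 1 such pair is not reported here. VGLL4, HPS3, B4GALT3, NQO1-DT, SOD1, CHGA, EPCAM and the retinal and repair rows given singly were chosen after their values were seen. An exact permutation test of 2 against 2 cannot go below p = 0.333, so none is given.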

Additional observations from a re-analysis of the deposited data

How the results depend on the processing

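Over all rows, edgeR called 0 higher and 0 lower. With RLE factors it called 1 and 12, with no low-count filter 12 and 68, and with the replicate block 248 and 1079, while DESeq2 called 10 and 858 and limma-voom 11 and 334. Leaving out 1 library gave 0 to 61 higher and 1 to 173 lower. A lone library is then taken to vary as the other group does. Replicate numbers did not pair the libraries (correlation of deviations 0.0502 over 24431 rows), and the block, under which BEST1 had -0.16 and MRNIP -0.17, called 0 of the 8. None of the 8 was called under any alternative run. Scaling on well-covered rows gave 0.55 for BEST1, 0.41 for FTH1, 0.54 for MRNIP, 0.16 for SQSTM1, 0.26 for FTL, 0.44 for TFRC and 0.58 for HMOX1, all negative before. The filter of 50 counts in 2 libraries, which removes FTL, NQO1 and HMOX1, gave 0.23 for BEST1, 0.12 for FTH1, 0.23 for MRNIP and 0.17 for TFRC, while SQSTM1 stayed negative at -0.15. The cause was not tested. Without 1 library the ranges were -0.50 to 0.07 for BEST1 and -0.48 to 0.03 for MRNIP (0.0659 and 0.0301 without siCTRL replicate 1), -1.03 to 0.28 for TFRC, -0.90 to 0.41 for HMOX1, -0.62 to -0.06 for FTH1, -0.77 to -0.43 for SQSTM1, -0.63 to -0.32 for FTL and 0.08 to 0.87 for NQO1. With an overlap of 1 base instead of 100, 21 instead of 18 listed genes had more counts in the opposite row. FTL, TFRC, NQO1 and HMOX1 each rest on under 100 counts a library.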
